A study of Zea mays with 7 samples.

Results

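Expression in maize ear primordia was followed for the bZIP genes *FASCIATED EAR4* (*FEA4*, *GRMZM2G133331*) and *LIGULELESS2* (*LG2*, *GRMZM2G060216*) and for the glutaredoxin gene *MALE STERILE CONVERTED ANTHER1* (*MSCA1*, *GRMZM2G442791*). They were taken by gene identifier, and all 3 were found among the 110451 genes of the count table and among the 40650 with a total of at least 2 counts, which were tested. RNA-seq had been performed on 3 pools of wild-type ear primordia and 4 pools of *Bif3* mutant ear primordia, all 3–4 mm long, field-grown and in the B73 background, with 3 ears in a pool. *Bif3* is a single dominant allele that carries a second, tandem copy of *ZmWUS1* behind an altered promoter. The labels give the mutants no zygosity, the study's methods call them homozygous and the wild-type plants their siblings, and the labels describe the *Bif3* ears as having the look of the mutant. Total counts were between 41720131 and 56057512 per wild-type pool and between 42481699 and 50824983 per *Bif3* pool.

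*FEA4* encodes a TGA-type bZIP transcription factor, the maize counterpart of Arabidopsis PERIANTHIA. Loss of *FEA4* enlarges the inflorescence meristem and gives fasciated ears, and genetic work places the gene in parallel to the CLAVATA receptors. *MSCA1* encodes a plant-specific CC-type glutaredoxin, a small redox enzyme. Loss of *MSCA1* converts anther cells and makes plants male sterile, while a dominant allele, *Abphyl2*, enlarges the shoot meristem and alters phyllotaxy. In Arabidopsis, glutaredoxins of this class bind TGA-type bZIP factors such as PERIANTHIA and alter their activity. *LG2* is a bZIP gene of the same class, known for the boundary between leaf blade and sheath, where the ligule forms, and for tassel branch number. *LIGULELESS RELATED SEQUENCE1* (*LRS1*, *AC232238.2_FG004*) is its close relative.

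The labels held for the altered locus. *ZmWUS1* (*GRMZM2G047448*), the homeobox gene that promotes stem cells, had 0.551, 0.324 and 0.320 CPM (counts per TMM-scaled library size) in wild-type and 4.31, 5.13, 3.82 and 12.8 CPM in *Bif3*. Of the 40650 genes tested, 1380 (3.39%) were higher and 243 (0.598%) were lower in *Bif3* past the threshold, which asked for p under 0.05, Benjamini-Hochberg adjusted p (adjusted p below) under 0.1 and more than 1.5-fold change in the quasi-likelihood test of edgeR. These counts moved with single pools, to 687 higher without wild-type replicate 3 and 713 without *Bif3* replicate 2, and to 137, 142 and 114 lower without wild-type replicate 3, *Bif3* replicate 1 and *Bif3* replicate 2. Among the 21636 genes with a mean of at least 1 CPM, to which all 3 genes belong, these shares were 4.98% and 0.8%. None of the 3 genes was past the threshold. At an unadjusted p under 0.05 there was 1, *LG2*, which was lower. Over all genes tested, 7.49% were lower at that level. With DESeq2, unlike edgeR, *LG2* was past the threshold, and *FEA4* and *MSCA1* were not. Whole ears were sampled, so fewer cells that express a gene and less RNA per cell cannot be told apart.

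*FEA4* was measured at 293, 166 and 253 reads in wild-type, against 263, 200, 281 and 460 reads in the mutant pools. This was 7.02, 2.99 and 5.07 CPM in wild-type and 5.97, 4.24, 6.27 and 9.26 CPM in *Bif3*. The genotypes overlapped: 3 of the 4 *Bif3* pools lay inside the wild-type range and only *Bif3* replicate 4 lay above it. The means were 5.02 ± 2.02 CPM (SD, n = 3) and 6.44 ± 2.08 CPM (SD, n = 4). The log2 fold change of *FEA4* was 0.36 (SE 0.29, edgeR adjusted p = 0.534). Its 95% interval ran from 0.830-fold to 1.99-fold, so an equal level and a level close to the upper limit both lay inside it. The highest pool of each genotype had 2.35 times the *FEA4* level of the lowest in wild-type and 2.18 times in *Bif3*.

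*MSCA1* behaved much like *FEA4* over the pools. Its reads numbered 212, 139 and 239 in wild-type, against 216, 211, 233 and 370 in *Bif3*, or 5.08, 2.50 and 4.79 CPM against 4.90, 4.48, 5.20 and 7.45 CPM. Here too *Bif3* replicate 4 was the highest pool and wild-type replicate 2 the lowest, and the genotypes overlapped. The means of *MSCA1* were 4.12 ± 1.41 CPM (SD, n = 3) in wild-type and 5.51 ± 1.33 CPM (SD, n = 4) in *Bif3*. On the log2 scale the fold change was 0.42 (SE 0.25, edgeR adjusted p = 0.417), with a 95% interval from 0.916-fold to 1.96-fold. The highest *MSCA1* pool had 2.98 times the level of the lowest over all 7 pools.

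*LG2* went the other way. Its reads numbered 304, 213 and 446 in wild-type, against 149, 97, 210 and 220 in the mutant pools. The CPM of *LG2* were 7.28, 3.83 and 8.93 in wild-type and 3.38, 2.06, 4.69 and 4.43 in *Bif3*. All 4 *Bif3* pools were below wild-type replicates 1 and 3, but 2 of them were above wild-type replicate 2, so the genotypes overlapped. The means of *LG2* were 6.68 ± 2.60 CPM (SD, n = 3) and 3.64 ± 1.20 CPM (SD, n = 4). On the log2 scale the fold change was -0.87 (SE 0.30), or 0.545-fold with a 95% interval from 0.345-fold to 0.862-fold. With an unadjusted p of 0.0137 and an edgeR adjusted p of 0.150, *LG2* missed the threshold. *LG2* was past the threshold, at -1.16 on the log2 scale, when wild-type replicate 2 was left out (edgeR adjusted p = 0.0488). DESeq2 placed *LG2* past the threshold on all 7 pools, with an adjusted p of 0.0563 and nearly the same log2 fold change, -0.88. Over all 14 alternatives the adjusted p of *LG2* ranged from 0.00114, in the fit with the replicate number as a block, to 0.469 without wild-type replicate 3, and its log2 fold change was negative in each. In the block fit *Bif3* replicate 4 has no wild-type partner, so the genotype difference there rests on replicates 1 to 3 alone. Whether pools of the same number belong together was not tested.

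**Figure D1:**
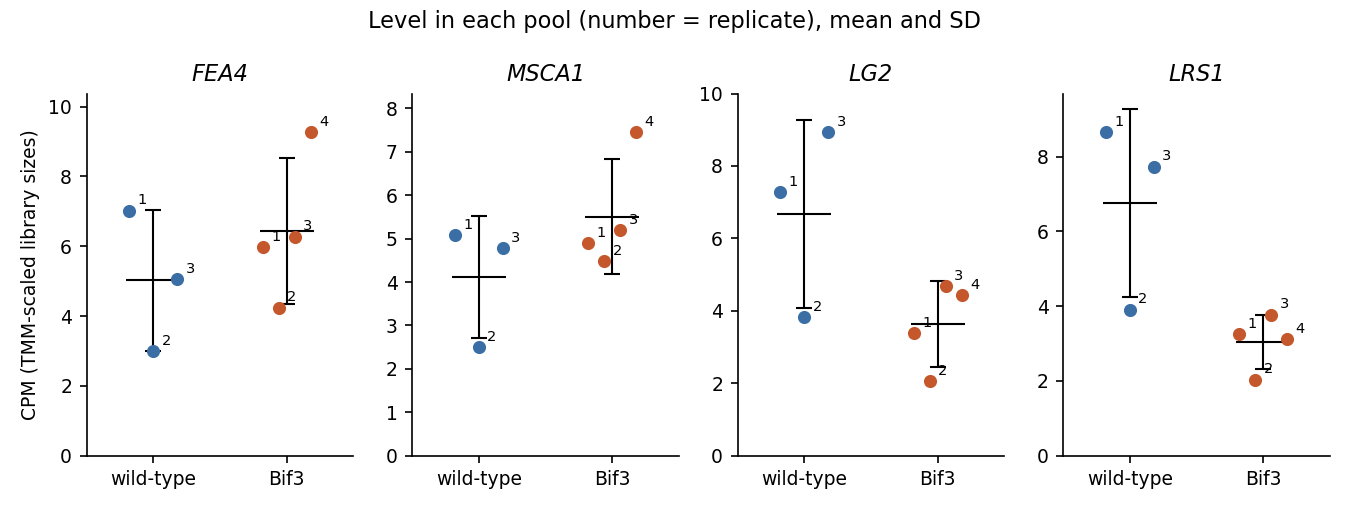
CPM of *FEA4*, *MSCA1*, *LG2* and *LRS1* in each of 3 wild-type pools (blue) and 4 *Bif3* pools (orange), with the replicate number beside each point and the mean ± SD in black; each panel has its own axis. *LRS1* alone has no overlap between the genotypes, and replicate 2 is the lowest pool of its genotype in every panel.

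*LRS1* was lower in every *Bif3* pool than in every wild-type pool. It had 8.65, 3.91 and 7.73 CPM in wild-type and 3.24, 2.04, 3.77 and 3.12 CPM in *Bif3*. Among the genes with a mean of at least 1 CPM, 12.2% had every *Bif3* pool below every wild-type pool. The log2 fold change of *LRS1* was -1.15 (SE 0.27, edgeR adjusted p = 0.0407), past the threshold. It fell short of the threshold without wild-type replicate 1, wild-type replicate 3 or *Bif3* replicate 2, with adjusted p-values of 0.132, 0.152 and 0.109. *LRS1* took its name from the study's own list of changed genes, so its call is not independent evidence on the relatives of *LG2*. How the counting treated reads that both paralogs share was not tested, and the values of *LG2* and *LRS1* are uncertain to that extent.

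Replicate 2 was low for all of these genes, while the highest pools differed between them. Wild-type replicate 2 was the lowest wild-type pool and *Bif3* replicate 2 the lowest *Bif3* pool for *FEA4*, *LG2* and *MSCA1* alike, and for *LRS1*. The highest pools were wild-type replicate 1 and *Bif3* replicate 4 for *FEA4* and *MSCA1*, and wild-type replicate 3 and *Bif3* replicate 3 for *LG2*. Of the 21636 genes with a mean of at least 1 CPM, 2184 (10.1%) were lowest in these pools in both genotypes. On the log2(CPM + 0.5) scale wild-type replicate 2 lay 0.59 (*FEA4*), 0.66 (*LG2*), 0.57 (*MSCA1*) and 0.65 (*LRS1*) below the wild-type mean, given here as sizes of the difference. The pools also differed in markers of the ear. *BD1* (*GRMZM2G307119*), which marks the boundary of the spikelet meristem, had 0, 0.900 and 0.10 CPM in wild-type and 2.88, 1.70, 0.112 and 0.0604 CPM in *Bif3*. *ZYB15* (*GRMZM2G529859*), a marker of suppressed bracts, had 20.9, 58.9 and 32.9 CPM in wild-type and 54.6, 47.3, 28.8 and 26.4 CPM in *Bif3*. Wild-type replicate 2 was thus the highest wild-type pool for both markers, and *Bif3* replicates 1 and 2 were the highest *Bif3* pools. The meristem genes *KN1*, *RA1*, *RA2* and *RA3* went the other way in wild-type, with their lowest level in replicate 2.

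**Figure D2:**
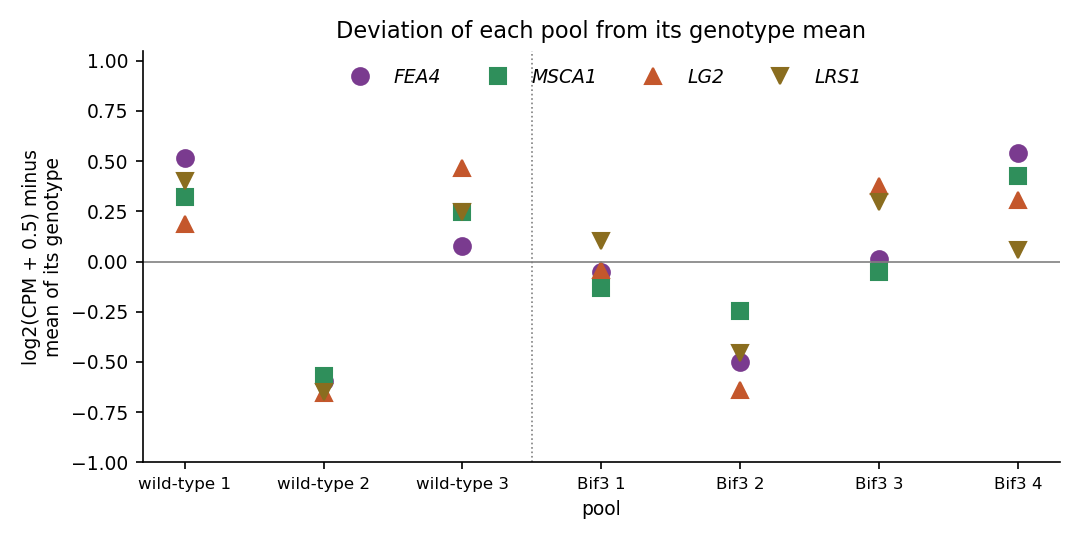
Difference between log2(CPM + 0.5) in a pool and the mean of its genotype, for *FEA4*, *MSCA1*, *LG2* and *LRS1*, with wild-type pools left and *Bif3* pools right of the dotted line. All 4 genes lie below 0 in replicate 2 of both genotypes, between -0.66 and -0.57 in wild-type.

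The 7 ear markers were the meristem genes *KN1*, *RA1*, *RA2*, *RA3* and *BD1*, with *ZYB15* and the epidermal gene *OCL4*. Of these, *RA2* and *RA3* were lower in *Bif3* past the threshold and none was higher, beside 0.598% lower and 3.39% higher over all genes tested. The study had already reported both as down-regulated in the same RNA-seq, so this count is not independent of it. *OCL4* had a log2 fold change of -0.56 and an edgeR adjusted p of 0.0113, but a fold change under 1.5. In wild-type replicate 2, 4 of the 7 were at their lowest and 3 at their highest among the wild-type pools. *OCL4* was highest there by little, with 86.2 CPM against 86.1 CPM in replicate 1. Of the genes with a mean of at least 1 CPM, 33.8% were lowest and 29.1% highest in wild-type replicate 2. In *Bif3* replicate 2, 3 of the 7 were at their lowest among the *Bif3* pools and 0 at their highest, where the shares over such genes were 22.3% and 19%. *KN1* (*GRMZM2G017087*), the homeobox gene expressed through the meristem, was abundant in every pool, with 467 ± 43.1 CPM (SD, n = 3) in wild-type and 547 ± 53.8 CPM (SD, n = 4) in *Bif3*. Markers of green tissue were planned by gene description but were taken by light-harvesting or Rubisco small subunit symbols. This found 9 genes, 7 of them tested. These 7 were near 0, with a sum between 0.621 and 2.84 CPM in wild-type and between 0.759 and 2.79 CPM in *Bif3*. None was past the threshold, and other green tissue genes were not examined. Whether the stage or make-up of the pools contributes to the levels of *FEA4*, *LG2* and *MSCA1* was not tested.

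A ratio of counts inside a pool does not depend on the library scaling. There were 0.964, 0.779 and 0.567 *FEA4* counts for each *LG2* count in the wild-type pools, and 1.76, 2.06, 1.34 and 2.09 in the *Bif3* pools. *LG2* had the larger count in all 3 wild-type pools, and *FEA4* the larger count in all 4 *Bif3* pools. Counts were not corrected for transcript length, so they do not say which gene had more transcripts. Only the shift of the ratio between genotypes can be read. The mean log2 ratio was -0.41 ± 0.38 (SD, n = 3) in wild-type and 0.84 ± 0.30 (SD, n = 4) in *Bif3*. The difference of 1.25 on the log2 scale, or 2.37-fold, is given as a description with no test, because the genes were chosen with earlier results of these data known. The ratios of the genotypes did not overlap, although the levels of *FEA4* and of *LG2* each did. How often the ratios of other gene pairs separate the genotypes was not calculated. Of single genes with a mean of at least 1 CPM, 12.2% had every *Bif3* pool below every wild-type pool. The ratio does not say which of the genes moved. Leaving out 1 pool at a time left the difference between 1.04 and 1.43.

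The ratio of *MSCA1* to *LG2* counts has no test either and was calculated after the values had been seen. It was 0.697, 0.653 and 0.536 in wild-type and 1.45, 2.17, 1.11 and 1.68 in *Bif3*, without overlap. Its *LG2* counts are those of the ratio of *FEA4* to *LG2*, so it is not a separate observation. The ratio of *MSCA1* to *FEA4* counts, in contrast, was 0.724, 0.837 and 0.945 in wild-type and 0.821, 1.06, 0.829 and 0.804 in *Bif3*. The glutaredoxin gene and the *PERIANTHIA*-type bZIP gene thus had overlapping ratios, which differed by 0.07 on the log2 scale, while the level of each varied 3.1-fold (*FEA4*) and 2.98-fold (*MSCA1*) over the pools. *LRS1* had 1.19, 1.02 and 0.866 counts for each *LG2* count in wild-type and 0.960, 0.990, 0.805 and 0.705 in *Bif3*, which overlapped as well.

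**Figure D3:**
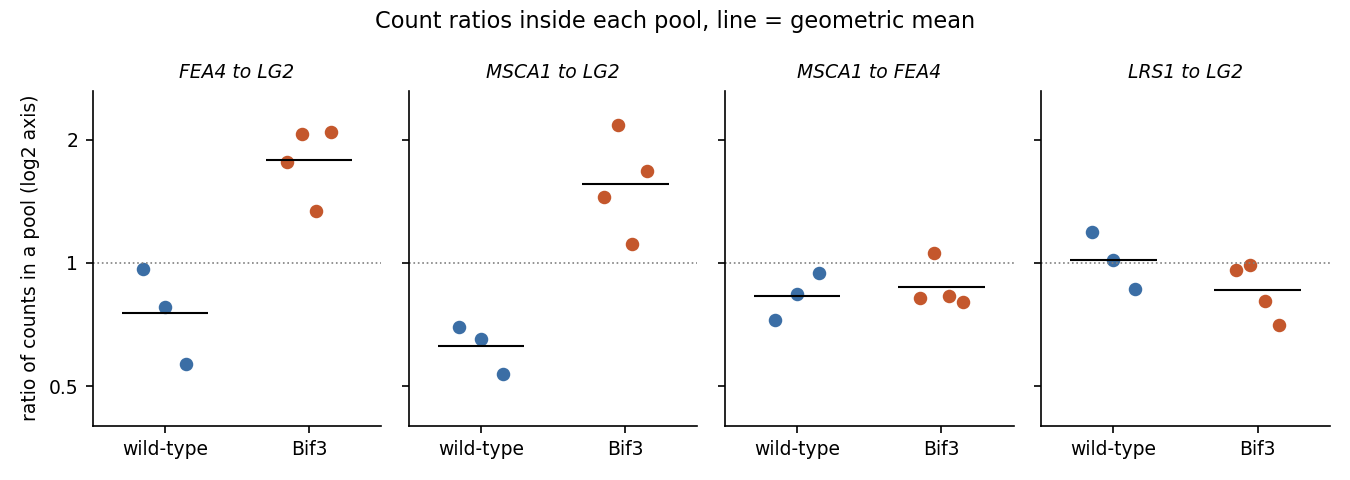
Ratio of the counts of 2 genes in the same pool, on a log2 axis, for 3 wild-type pools (blue) and 4 *Bif3* pools (orange); the black line is the geometric mean and the dotted line marks equal counts. *FEA4* to *LG2* lies between 0.567 and 0.964 in wild-type and between 1.34 and 2.09 in *Bif3*, while *MSCA1* to *FEA4* overlaps. Counts are not corrected for transcript length, so the side of the dotted line does not rank the genes.

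Likeness of pattern was measured as Pearson's r of log2(CPM + 0.5) over the 7 pools, against the 21635 other genes with a mean of at least 1 CPM, as a description only. The r of *FEA4* and *MSCA1* was 0.945 (Spearman's rho 0.964). *MSCA1* was the gene in place 21 by likeness to *FEA4*, and *FEA4* was in place 41 by likeness to *MSCA1*. Without the 2 pools farthest from the median of *FEA4* the r was 0.926. *LG2* and *LRS1* had an r of 0.942 (rho 0.786), 0.898 without the 2 pools farthest from the median of *LG2*, and *LRS1* was in place 86. Across these pairs the likeness was lower, with an r of 0.306 for *FEA4* and *LG2* and 0.182 for *MSCA1* and *LG2*. Without the 2 pools farthest from the median of *FEA4* or *MSCA1* these were 0.504 and 0.525, and without those farthest from the median of *LG2* they were 0.375 and 0.258. The points are the same 7 libraries in every case, and they include the difference between genotypes.

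The genes most like *FEA4* were *GRMZM5G899428*, with an r of 0.988, and *GRMZM2G036262* and *GRMZM2G169000*, both with 0.975. The last is *PP2C30*, named for a type 2C protein phosphatase. The least like *FEA4* was *GRMZM2G068177*, with an r of -0.985. For *LG2* they were *GRMZM2G155626* (0.991), *GRMZM2G094255* (0.987) and *GRMZM2G172448* (0.986), and the least like was *GRMZM5G826321* (-0.993). For *MSCA1* they were *GRMZM2G065073* (0.991), *GRMZM2G152373* (0.990) and *GRMZM2G141299* (0.990), and the least like was *GRMZM2G152011* (-0.986). None of these 12 genes was past the threshold between the genotypes. All 3 genes thus had others at an r of 0.975 or more and at -0.985 or less among these 7 pools.

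RefSeq's gene list for NAM-5.0, another assembly than that of the counts, was taken here for symbols and order. It holds 38 genes with a bZIP, *OBF*, *LG2* or *FEA4* symbol. Matching them to the counts gave 38 identifiers under 36 different symbols. Of the 37 tested, 2 were higher and 1 was lower past the threshold, beside the background of 3.39% and 0.598% over all genes. Counts this small say nothing about the family, and leaving out 1 pool gave 1 to 2 higher and 0 to 2 lower, with 1 higher without wild-type replicate 2, and 0 lower without wild-type replicates 1 or 3 or *Bif3* replicates 1 or 2. Their median log2 fold change was 0.07, and that of all genes tested was -0.01. With a mean of at least 1 CPM there were 28 bZIP genes, with a median of 0.01 against -0.04 over all such genes. *LG2* had the most negative log2 fold change of these 28, which do not include *LRS1*, and *FEA4* had the fifth highest, after *bZIP7*, *bZIP92*, *OBF1* and *bZIP68*.

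The 3 bZIP genes past the threshold were *bZIP7*, *bZIP92* and *OBF3.1*. *bZIP7* (*GRMZM2G006578*), whose nearest Arabidopsis gene is *TGA10* in the study's annotation, had 1.01, 0.522 and 0.601 CPM in wild-type and 2.93, 5.33, 2.59 and 9.50 CPM in *Bif3*. Its log2 fold change was 2.86 (SE 0.46, edgeR adjusted p = 0.00826), with the highest *Bif3* level in replicate 4. *bZIP7* was past the threshold in all 14 alternatives. *bZIP92* (*GRMZM2G077124*) rose from a mean of 24.2 CPM to 38.3 CPM, a log2 fold change of 0.66 (edgeR adjusted p = 0.0180), and was under the fold limit without wild-type replicate 2, at 0.56. *OBF3.1* (*GRMZM2G019907*), of the TGA class by its nearest Arabidopsis genes, had 12.0, 8.53 and 9.47 CPM in wild-type and 5.42, 5.26, 7.61 and 6.44 CPM in *Bif3*. Its log2 fold change was -0.69 (edgeR adjusted p = 0.0448), and it fell short of the threshold without wild-type replicate 1 (0.132), wild-type replicate 3 (0.113), *Bif3* replicate 1 (0.130) or *Bif3* replicate 2 (0.138). *OBF3.2* (*GRMZM2G125243*), its relative, had a log2 fold change of -0.51 and an edgeR adjusted p of 0.0128, but a fold change under 1.5. All 4 *Bif3* pools of *OBF3.2*, at 35.3, 36.3, 43.9 and 41.4 CPM, were below the wild-type pools at 54.1, 55.5 and 58.0 CPM.

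The genes annotated as TGA-type in these sources thus went both ways in *Bif3*. *bZIP7* was higher, *LRS1* and *OBF3.1* were lower past the threshold, and *FEA4*, *LG2* and *OBF3.2* were not past it. The TGA annotation of *bZIP7*, *LRS1*, *OBF3.1* and *OBF3.2* comes from the study's table of changed genes. This set therefore depends on that table, and its counts carry no weight.

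**Figure D4:**
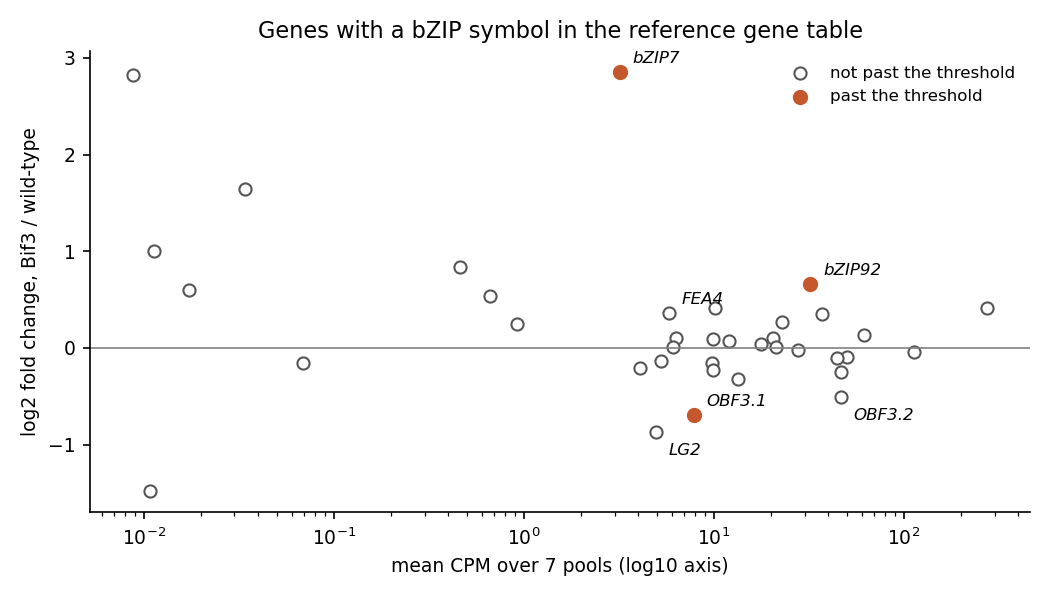
Log2 fold change between *Bif3* and wild-type against mean CPM (log10 axis) for the 37 tested genes with a bZIP symbol in the reference gene table; filled points are past the threshold. Most points with at least 1 CPM lie near 0, *bZIP7* lies at 2.86 and *LG2* at -0.87.

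Other glutaredoxins were known by name for 4 genes. *GRMZM2G148387*, annotated as *Grx_C2.1*, had 4.65, 3.44 and 4.91 CPM in wild-type and 6.60, 7.81, 5.80 and 9.22 CPM in *Bif3*, and *GRMZM5G819523* had 7.12, 6.14 and 7.93 CPM against 13.7, 13.0, 8.93 and 12.1 CPM. Their log2 fold changes were 0.77 (edgeR adjusted p = 0.0507) and 0.76 (edgeR adjusted p = 0.0272). The first fell short of the threshold without wild-type replicate 2 (adjusted p = 0.139), *Bif3* replicate 2 (0.142) or *Bif3* replicate 4 (0.112). *GRMZM2G383680* had 0, 2 and 1 reads in wild-type, under the detection limit of 3 counts, against 11, 21, 3 and 6 reads in *Bif3*, with an edgeR adjusted p of 0.0740. It was past the threshold in 6 of 13 alternatives. These 3 genes carry their annotation in the study's table of changed genes, so they are no sample of the family. *grx1* (*GRMZM2G150295*), the only glutaredoxin named in the reference gene table, had a log2 fold change of 0.25 (edgeR adjusted p = 0.103). Whether any of these is of the CC type like *MSCA1* was not analysed here.

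Of the pathway genes *LG1* and *ABPH1*, only the second was past the threshold. *LG1* (*GRMZM2G036297*), the SBP-box gene that acts with *LG2* at the ligule, was low but above the detection limit, with 0.311, 0.558 and 0.200 CPM in wild-type and 0.363, 0.297, 0.156 and 0.121 CPM in *Bif3*. The detection limit of 3 counts was between 0.0540 and 0.0719 CPM per pool and covers counting error only. The log2 fold change of *LG1* was -0.62 with an edgeR adjusted p of 0.534. *ABPH1* (*GRMZM2G035688*), a type-A response regulator of cytokinin signaling whose loss, like the *Abphyl2* allele of *MSCA1*, alters phyllotaxy, had 2.13, 1.96 and 3.68 CPM in wild-type and 5.49, 4.12, 7.41 and 12.8 CPM in *Bif3*. Its log2 fold change was 1.52 (edgeR adjusted p = 0.0424), and *ABPH1* was short of the threshold without wild-type replicate 1 (0.129) or wild-type replicate 2 (0.111). *ZmCLE7* (*GRMZM2G372364*), which encodes the CLAVATA3-type peptide, had 2.38, 5.03, 2.86 and 17.6 CPM in *Bif3* against 0.850 ± 0.224 CPM (SD, n = 3) in wild-type. Its log2 fold change was 3.05 (edgeR adjusted p = 0.0292), with 0.109 without wild-type replicate 3, and the log2 fold change was 2.02 without *Bif3* replicate 4. *Bif3* replicate 4 was the highest *Bif3* pool for *ZmWUS1*, *ZmCLE7*, *ABPH1*, *bZIP7*, *FEA4* and *MSCA1*, but not for *LG2*, whose highest *Bif3* pool was replicate 3. Of the genes with a mean of at least 1 CPM, 30.2% were highest in *Bif3* replicate 4 among the *Bif3* pools, as were 4 of the 7 ear markers. Without this pool the log2 fold changes of *ZmWUS1*, *bZIP7* and *ABPH1* were 3.48, 2.36 and 1.13, all past the threshold.

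**Figure D5:**
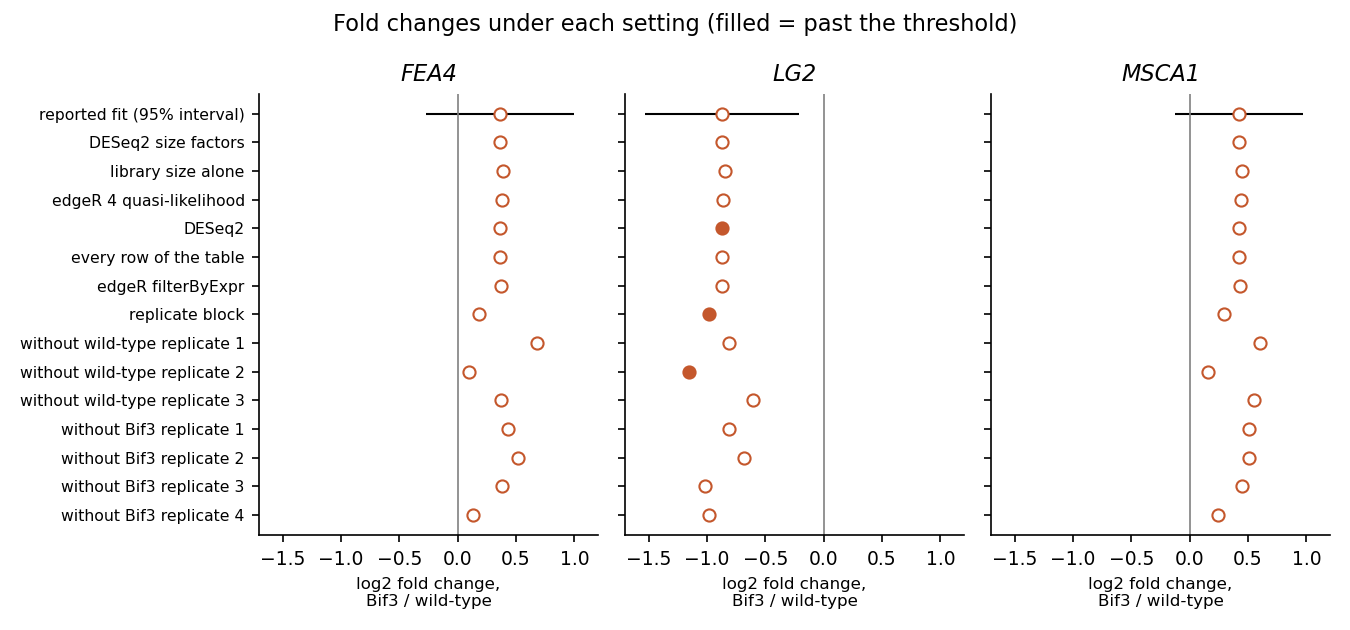
Log2 fold change of *FEA4*, *LG2* and *MSCA1* between *Bif3* and wild-type in the reported fit, with its 95% interval as a line, and under 14 alternatives; filled points are past the threshold. *FEA4* and *MSCA1* stay above 0 and short of the threshold, from 0.09 to 0.68 and from 0.16 to 0.60, and *LG2* stays below 0, from -1.16 to -0.61.

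The sign of all 3 fold changes held in the 14 alternatives, while their size depended on single pools. Leaving out wild-type replicate 2 took the log2 fold change of *FEA4* from 0.36 to 0.09 and that of *MSCA1* from 0.42 to 0.16, and leaving out *Bif3* replicate 4 took them to 0.13 and 0.24. Without wild-type replicate 1 they were 0.68 and 0.60, at 0.290 and 0.319 for the edgeR adjusted p. For *LG2*, leaving out wild-type replicate 3 gave the smallest change, -0.61 (adjusted p = 0.469).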

How the data were processed

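Total RNA from pools of 3 ear primordia was made into stranded TruSeq mRNA libraries, per the labels. The deposited values are read counts per gene without normalization: in the study's methods the authors trimmed with Trimmomatic, used HISAT 2.1.0 with the v3 assembly of B73, and counted with HTSeq-count, whereas the sample labels name TopHat2 2.1.1 and Cuffdiff. The strand setting is not given in the sources used here. No pair of pools held the same library (at least 34.7% of genes differed beyond counting noise).

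Counts were tested in R 4.3.3 with edgeR 4.0.16 (quasi-likelihood fit in the legacy form, TMM scaling, no covariate) on the 40650 genes that reached 2 counts over all pools. The other genes were left out, 65090 with no count and the rest with fewer than 2 counts over all pools. Genes named are the 3 members, their relatives, genes of their pathways, ear markers and the genes most alike in pattern. Members and lists were chosen with earlier results of these data known. For that reason the exact permutation test planned for the ratio of *FEA4* to *LG2* is not reported. TGA-type bZIP, CC-type glutaredoxin and NPR-type lists needed protein sequences or descriptions and were not analysed here; genes with a bZIP symbol were used instead, a choice made after seeing the data. Each pool is 1 biological replicate in the study's methods. The alternatives were other scalings, edgeR 4's fit, DESeq2 1.42.0, other count filters, other thresholds, a replicate block and each pool left out. The edgeR fit was tested on simulated data.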

Additional observations from a re-analysis of the deposited data

Results flagged for a closer look

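Among the 20 named genes examined over the 4 *Bif3* pools, 1 had a pool far from the others. The gap between the highest and the next *Bif3* pool of *ZmWUS1* took 0.854 of the whole range, with replicate 4 at 12.8 CPM and the others at 4.31, 5.13 and 3.82 CPM. Chance alone gives such a pool in about 1 of 20 groups. *ZmCLE7* came close to this, with 17.6 CPM in replicate 4 and 2.38, 5.03 and 2.86 CPM in the others. *FEA4* and *MSCA1* were also highest in replicate 4, at 9.26 and 7.45 CPM, but with smaller gaps.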

How the results depend on the processing

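*FEA4* and *MSCA1* kept their direction and stayed short of the threshold in all 14 alternatives. *LG2* kept its direction in all 14 and was past the threshold in 3, namely DESeq2 (log2 fold change -0.88), the replicate block and the fit without wild-type replicate 2, with a range from -1.16 to -0.61 over the fits that left out a pool. With the replicate block the log2 fold changes of *FEA4*, *LG2* and *MSCA1* were 0.19, -0.98 and 0.29, the adjusted p of *LG2* was 0.00114, 1994 genes were higher, 394 were lower, and 2 bZIP genes were higher and 2 lower. This block gives *Bif3* replicate 4, which has no wild-type partner, no weight in the genotype difference. The ratio of *FEA4* to *LG2* within replicate numbers 1 to 3 differed by 1.17 under this block. The deviations of same-numbered pools correlated at -0.02, 0.49 and 0.27. The value for replicate 2, 0.49, was the highest of any wild-type and *Bif3* pair. Wild-type replicates 1 and 3 correlated best with *Bif3* replicates 3 and 4, at 0.08 and 0.30. Whether pools of the same number share a batch was not tested. At an adjusted p under 0.05, 891 genes were higher and 137 lower, and without a limit on fold change 670 were lower. Leaving out 1 pool gave 687 to 1817 higher and 114 to 327 lower genes, with the fewest higher genes without wild-type replicate 3 and the fewest lower genes without *Bif3* replicate 2. Higher bZIP genes numbered 1 to 2 in those fits and lower ones 0 to 2, with 2 lower under DESeq2 and without a fold limit. The difference in the log2 ratio of *FEA4* to *LG2* was 1.04 to 1.43 without 1 pool. The 3 genes had between 97 and 460 counts per pool, so the spread between pools, not counting error, set the intervals. The planned counts over TGA-type bZIP and CC-type glutaredoxin lists were not run.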

Other observations

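In the gene order of NAM-5.0, *LG1* lies on the chromosome of *ZmWUS1* with 49 genes between them, while *FEA4* and *LG2* lie on other chromosomes. *Bif3* was crossed into B73 from another background, and whether the donor segment still reaches *LG1* was not tested. *MSCA1* could not be placed through this table.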
